A study of Harpegnathos saltator with 27 samples.

Results

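The brain and the ovary were compared in Harpegnathos saltator workers that had received solvent but no added hormone, which gave the baseline difference between the tissues. The comparison used 6 of the 27 libraries of the study, chosen by their labels alone: 3 of the non-visual brain and 3 of the ovary. These workers had been injected in the abdomen with about 1 µL of 10% ethanol (EtOH) in a balanced salt solution, and tissue was taken 12 hours later. A further 12 brain and ovary libraries came from ants injected with 500 ng of JHA, the juvenile hormone analog methoprene, or 500 ng of 20E (20-hydroxyecdysone), with 3 libraries per tissue and treatment. They served to repeat the tissue comparison in other ants, and the 3 fat body libraries of the solvent ants served as a further tissue. The study took its tissues from 3 ants per treatment, and every group was injected, so no uninjected ant enters the comparison. Age and genetic background of the workers were not given in the labels.

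Harpegnathos saltator is a ponerine ant whose workers can become egg-laying reproductives as adults, a change in which the ovary grows and the brain and behaviour change. An insect brain is built of neurons and glia that have left the cell cycle and express many channels, receptors and synaptic proteins. An insect ovary is made of tubes in which germ cells, nurse cells and follicle cells divide and grow, and it is known for high synthesis of the RNA and protein loaded into eggs. The fat body stores nutrients and secretes many of the proteins of the insect blood.

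Genes carry identifiers from the count table. None of its 20659 identifiers was found among the 14329 genes of the species' RefSeq table, so no gene is named here. Markers of neurons, glia, germ cells and follicle cells could therefore not be looked up, and the labels "brain" and "ovary" were checked only against libraries of the same tissues from other ants. No sequence is printed for the same reason.

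The 6 libraries held 10.1 to 14.8 M (mega) counts on genes. Reads not assigned to a gene because they lay outside all of them made up 52.6% ± 2.26 (SD, n = 3) of the brain libraries and 36.5% ± 0.642 of the ovary libraries, so fewer of the aligned reads entered the brain values. On the first principal component, which held 93.5% of the variance of log2 levels, the brain libraries lay between -146 and -129 and the ovary libraries between 139 and 141. Brain replicate 3 stood apart from the other brain libraries. Its correlation with the ovary libraries over 12382 genes was 0.65 to 0.66, against 0.62 to 0.63 for brain replicates 1 and 2. For several results below, the value without this library is given as well.

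The brain libraries detected more genes than the ovary libraries. At a level of at least 1 CPM (1 count for each M of gene counts), brain replicates 1 to 3 together ran from 11680 to 11971 genes, and the ovary replicates from 10732 to 10800. The groups did not overlap, and the brain mean was 1.10 times the ovary mean. A two-sided exact permutation test gave p = 0.1, which is the smallest p that 3 libraries against 3 allow. Thinned to the smallest library, at 10144762 counts, the ranges were 11680 to 11963 in brain and 10728 to 10752 in ovary. The groups did not overlap at this equal depth either. Brain replicate 3 had the fewest genes of the brain libraries, 11680 against 11971 and 11908.

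Most genes that were found at all were found in both tissues. In all 6 libraries 9728 genes reached 1 CPM. A further 1113 genes reached it in all 3 brain libraries and in none of the ovary libraries, and 364 did so the other way round. Another 7698 identifiers stayed under 1 CPM in all 6. Complete absence was rare: 104 genes with a brain mean of at least 1 CPM had 0 counts in the 3 ovary libraries together, and 44 genes with an ovary mean of at least 1 CPM had 0 counts in brain. A count of 0 over a group allowed a level of up to 0.0741 CPM in ovary and 0.0864 CPM in brain (3 counts of the group's total, for counting error only).

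The counts were spread over many genes in both tissues. The 10 genes with the most counts took 5.35 to 6.35% of a brain library and 4.27 to 4.30% of an ovary library. A brain library needed 945 to 1064 genes to reach 50% of its counts, and an ovary library 933 to 975, ranges that overlap (two-sided exact permutation p = 0.3). To reach 90% it needed 5068 to 5184 genes in brain and 4521 to 4622 in ovary, where the groups did not overlap (p = 0.1 by the same exact test). Of the 100 genes with the most counts in each tissue, 20 were the same in both.

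Most of the genes tested differed between the tissues. With edgeR's quasi-likelihood test on the 6 libraries and a Benjamini-Hochberg adjusted p under 0.05, 9233 of 12382 genes were called, which is 74.6%. Of these, 4724 were higher in brain (38.2% of genes tested) and 4509 higher in ovary (36.4%). Against a floor of 2-fold, tested with glmTreat of edgeR, 5131 genes passed (41.4%), 3013 of them higher in brain (24.3%) and 2118 higher in ovary (17.1%). In 9109 of the 9233 called genes the 3 brain values and the 3 ovary values did not overlap, as in 78.7% of all genes tested. In pieces of tissue, fewer cells of a type and less RNA per cell cannot be told apart, and this holds for every level given here.

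**Figure D1:**
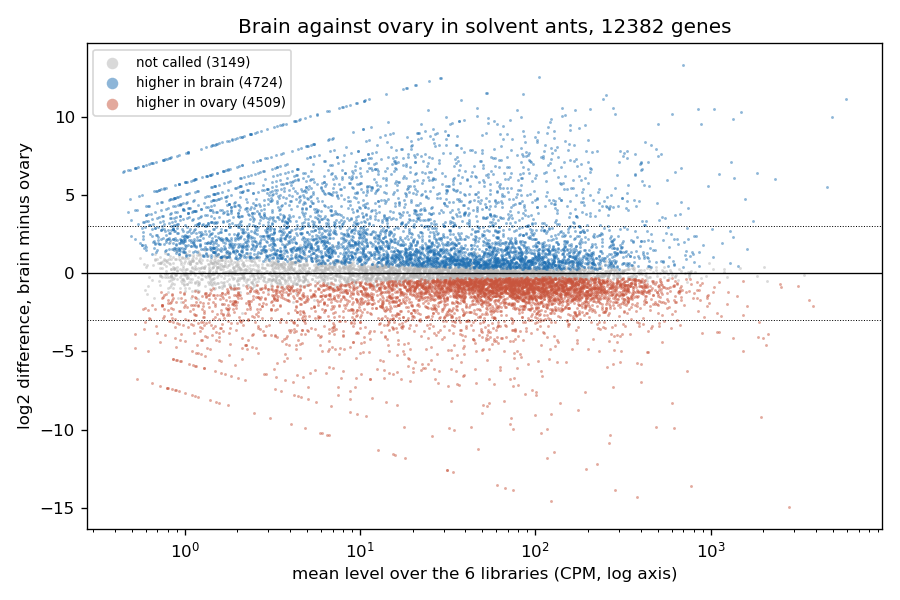
Each point is 1 gene, placed by its mean level over the 6 solvent libraries (x axis, CPM on a log axis) and its log2 difference, brain minus ovary (y axis). Blue marks the 4724 genes higher in brain, red the 4509 higher in ovary and grey the 3149 not called, dotted lines mark an 8-fold difference, and the straight rows of points at the left are genes with a few counts in 1 tissue.

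The directions were near even in number but not in size. Among genes higher in brain the median log2 difference was 2.02, and 1662 of the 4724 (35.2%) were at least 8-fold apart. Among genes higher in ovary the median was 1.24, and 630 of the 4509 (14.0%) were at least 8-fold apart. Both medians were the same with genes at 0 in a tissue placed at their bound. Differences called but under 2-fold made up 22.5% of the genes higher in brain and 37.6% of those higher in ovary. At 32-fold and over there were 843 genes higher in brain and 229 higher in ovary, or 813 and 215 with genes at 0 placed at their bound.

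**Figure D2:**
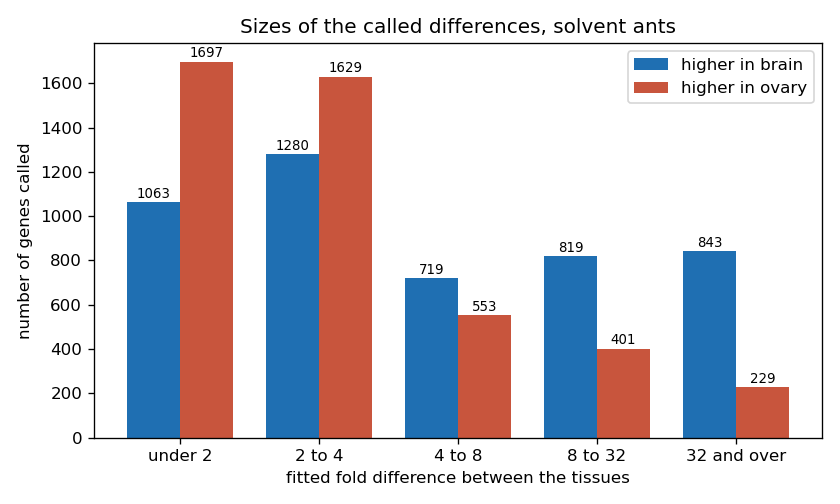
Bars count the called genes of the solvent comparison by fitted fold difference (x axis) and by the tissue in which they were higher. Ovary bars are taller under 4-fold (1697 and 1629 against 1063 and 1280), and brain bars are taller from 4-fold on (719, 819 and 843 against 553, 401 and 229).

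The tissue that was higher also changed with the read level of a gene. Read levels here are counts scaled to the library and not to gene length. Of the 2250 genes called with a mean of 1 to 10 CPM, 1542 (68.5%) were higher in brain. Between 10 and 100 CPM the brain share of 4410 called genes was 48.2%, and between 100 and 1000 CPM it was 36.3% of 2213. Under 1 CPM it was 74.4% of 312, and at 1000 CPM and over it was 43.8% of only 48 called genes, so the share did not fall at every step. The median gene higher in brain stood at 31.2 CPM in brain and 4.66 CPM in ovary, and the median gene higher in ovary at 78.8 CPM in ovary and 31.9 CPM in brain. The median standard error of the log2 difference was 0.39 between 1 and 10 CPM and 0.14 between 100 and 1000 CPM, so small differences were harder to detect at low read levels.

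The genes that took the most counts in each tissue, among those called, at least 8-fold apart and with no overlap, showed how far single genes differed. HSALG004673.2 stood at 10790, 12497 and 12187 CPM in brain replicates 1, 2 and 3 and at 6.43, 4.01 and 5.43 CPM in the ovary replicates. All brain values lay over 1000 times above all ovary values. The log2 difference was 11.12 (SE 0.20, edgeR adjusted p = 3.29e-08, n = 3 per tissue), and this gene alone made up 1.22% of brain gene counts. In the hormone-injected ants it ran from 8971 to 13898 CPM in brain and from 0.509 to 22.2 CPM in ovary. In fat body it was also low, at 16.4, 19.0 and 77.4 CPM on a scale set over the 9 solvent libraries, where the brain mean was 7924 CPM.

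HSALG013133.2 was at 8510, 10207 and 10766 CPM in brain and at 7.48, 6.50 and 15.0 CPM in ovary. The values did not overlap, and the log2 difference was 9.99 (SE 0.30, edgeR adjusted p = 2.30e-07). Unlike HSALG004673.2, it took a larger share of fat body counts, 3.28 to 4.80% of a library, than of brain counts, 0.877 to 1.18%. Its values were therefore set beside those of 355 genes enriched in fat body in the hormone-injected ants, of which it is 1. With JHA and also with 20E, these genes had a fat body mean of at least 10 CPM and at least 8 times the brain and ovary means. Their fat body values also lay above all brain and ovary values of that treatment, and no test entered this rule. In the solvent ants HSALG013133.2 reached 6.81% of its fat body level in brain and 0.00658% in ovary. These percentages, and those of the 355 genes, use CPM on a scale set over the solvent libraries of all tissues. On that scale its mean was 6591 CPM in brain and 96786 CPM in fat body. By share it took a mean of 1.02% of brain counts and 4.24% of fat body counts. Its brain level relative to fat body thus depended on the scaling. The rule for the 355 genes also used CPM and not shares. The median of those 355 genes was 1.71% in brain and 1.23% in ovary, with ranges between the lower and upper quartiles of 0.504 to 4.85% and 0.171 to 3.87%. In hormone-injected ants its ovary values ran from 8.05 to 183 CPM with JHA and from 4.32 to 236 CPM with 20E, and its tissue difference was 6.73 and 6.40 on the log2 scale (edgeR adjusted p = 0.0024 and 0.00489). The interaction test did not call a difference from the solvent ants for either hormone, with changes of -3.29 (SE 1.37, edgeR adjusted p = 1.00) and -3.60 (SE 1.37, adjusted p = 0.808).

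Among genes higher in ovary, HSALG005064.2 was nearly confined to that tissue. It stood at 6027, 5082 and 5605 CPM in ovary, and at 0, 0.229 and 0.270 CPM in brain. These brain values rested on 6 counts in the 3 libraries together, against 218752 counts in ovary. The log2 difference was -14.93 (SE 0.62, edgeR adjusted p = 3.75e-08). Fat body was at 0.288, 0.340 and 0 CPM on the 9-library scale. The ovary values of this gene spread widely in the hormone-injected ants, from 1234 to 7260 CPM with JHA and from 2203 to 9838 CPM with 20E, and 1 JHA brain library reached 11.9 CPM.

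HSALG012815.1 was also higher in ovary, at 3889, 4178 and 3950 CPM, but kept a clear level in brain, at 283, 239 and 297 CPM. The groups did not overlap, and the log2 difference was -3.88 (SE 0.14, edgeR adjusted p = 2.15e-07). In the fat body it was lower than in brain, at 8.07, 5.44 and 11.7 CPM against a brain mean of 183 CPM on the 9-library scale. The order of its levels was thus ovary, brain, fat body, with no overlap between neighbours.

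Some genes with many counts were at closely similar levels in both tissues. For 764 genes (6.17% of those tested) the 95% interval of the log2 difference lay inside -0.5 to 0.5, and for 3444 genes (27.8%) inside -1 to 1, of which 1271 were nonetheless called. Of the narrower group, the 2 with the highest mean were HSALG002151.2 and HSALG008484.2. HSALG002151.2 stood at 3623, 3282 and 2949 CPM in brain and 3981, 3097 and 3425 CPM in ovary, with a log2 difference of -0.09 (95% interval -0.45 to 0.27, edgeR adjusted p = 0.615). HSALG008484.2 was at 1297, 1452 and 878 CPM in brain and 1205, 1185 and 1127 CPM in ovary, with a difference of 0.04 (95% interval -0.39 to 0.48, edgeR adjusted p = 0.843). The difference of HSALG008484.2 shifted with the brain library left out. Without brain replicate 3 it was 0.22 (edgeR adjusted p = 0.0893), and without brain replicate 2 it was -0.10. These were the ends of its range over 15 alternatives, so the fitted difference stayed inside -0.5 to 0.5. The brain and ovary values of both genes overlapped. With 20E, HSALG008484.2 was called as higher in brain, by 0.43 on the log2 scale (edgeR adjusted p = 0.0317). On the 9-library scale HSALG002151.2 stood at 6877, 14682 and 10453 CPM in fat body. Its means on that scale were 2198 CPM in brain and 2308 CPM in ovary. By share of counts it took 0.303 to 0.610% of a fat body library, 0.339% of brain counts and 0.338% of ovary counts. A higher level of this gene in fat body thus depended on the scaling. HSALG008484.2 took 0.0165 to 0.0258% of a fat body library, which was lower than its 0.124% of brain counts and 0.113% of ovary counts. For 976 genes (7.88%) the test neither called a difference nor placed the interval inside -1 to 1; their median level was 3.13 CPM, and for these no statement is possible at this depth.

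The tissue difference was then measured in the hormone-injected ants, which share no library with the solvent ants. With 6 libraries each, 7432 of 11989 genes were called with JHA (62.0%) and 8717 of 12297 with 20E (70.9%) by the same edgeR test. With JHA 3879 were higher in brain (32.4%) and 3553 higher in ovary (29.6%), and with 20E 4373 (35.6%) and 4344 (35.3%). Past the 2-fold floor, genes higher in brain again outnumbered those higher in ovary, with 2423 (20.2%) against 1462 (12.2%) with JHA and 2762 (22.5%) against 1863 (15.2%) with 20E. Together these made 3885 genes (32.4%) and 4625 genes (37.6%). Of the 9233 genes called in solvent ants, 8887 could be tested with JHA, and 8835 had the same direction and 7090 were also called in that direction. With 20E, 9039 could be tested, of which 8931 had the same direction and 7907 were called in it. Genes called in the opposite direction numbered 3 with JHA and 9 with 20E. The same direction was called in all 3 treatments for 6687 genes, 3404 higher in brain and 3283 higher in ovary, out of 11808 tested in each.

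Large differences repeated more often than small ones. Of solvent differences of at least 8-fold, 2062 of 2095 were called in the same direction with JHA and 2165 of 2189 with 20E. These are the genes that could be tested, out of 2292 called at this size in solvent ants. Of those under 2-fold, all of which could be tested, 1624 of 2760 (58.8%) were called in the same direction with JHA. With 20E 2067 of 2760 (74.9%) were. Of all genes tested, 32.4% were called higher in brain and 29.6% higher in ovary with JHA, and 35.6% and 35.3% with 20E. Across genes the log2 differences correlated with those of the solvent ants at r = 0.973 with JHA (11898 genes) and 0.971 with 20E (12104 genes), a description over genes, which are not replicates. The median gene differed by 0.24 log2 units between solvent ants and either set of hormone-injected ants, and 92.7% (JHA) and 90.8% (20E) of genes lay within 1 log2 unit.

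**Figure D3:**
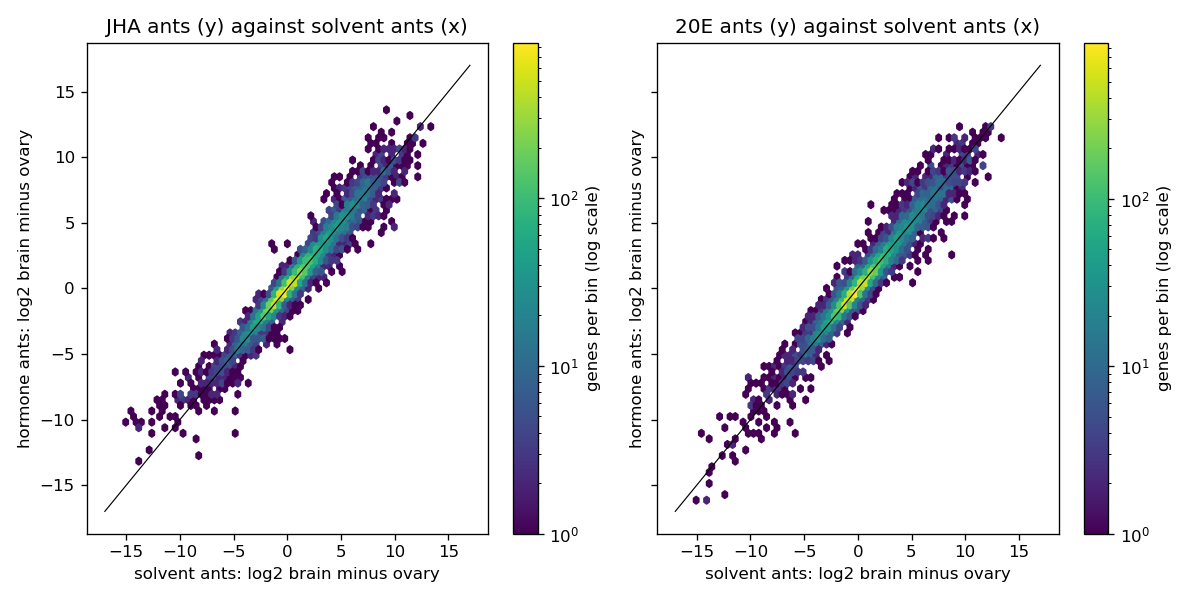
Both panels plot, for 11808 genes, the log2 difference brain minus ovary in hormone-injected ants (y axis; JHA left, 20E right) against that in solvent ants (x axis), with colour giving the number of genes per bin on a log scale. Genes lie along the line of equal values, with r = 0.973 for JHA and 0.971 for 20E over all genes tested in each pair.

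Genes enriched in 1 tissue were next chosen in the hormone-injected ants only, so that the solvent libraries could be read without having chosen them. A gene counted as enriched when it was called and at least 8-fold higher with JHA and also with 20E, which gave 1345 genes for brain and 431 for ovary. In the solvent ants, the 1332 brain-enriched genes and the 429 ovary-enriched genes that could be tested were called in the same direction, where 38.2% and 36.4% of all genes were. Of these, 1291 and 411 were again at least 8-fold apart.

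The brain-enriched genes took 20.3, 21.6 and 19.0% of gene counts in the solvent brain replicates and 0.492, 0.476 and 0.508% in the ovary replicates. The ovary-enriched genes took 8.58, 8.91 and 9.01% in ovary and 0.401, 0.384 and 0.423% in brain. In both sets the tissues did not overlap, and the share in the other tissue was about the same in each of its 3 libraries. The brain set was thus larger in number of genes and in share of counts, although the median ovary-enriched gene had the higher read level in its own tissue, at 34.2 against 17.4 CPM (9-library scale).

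**Figure D4:**
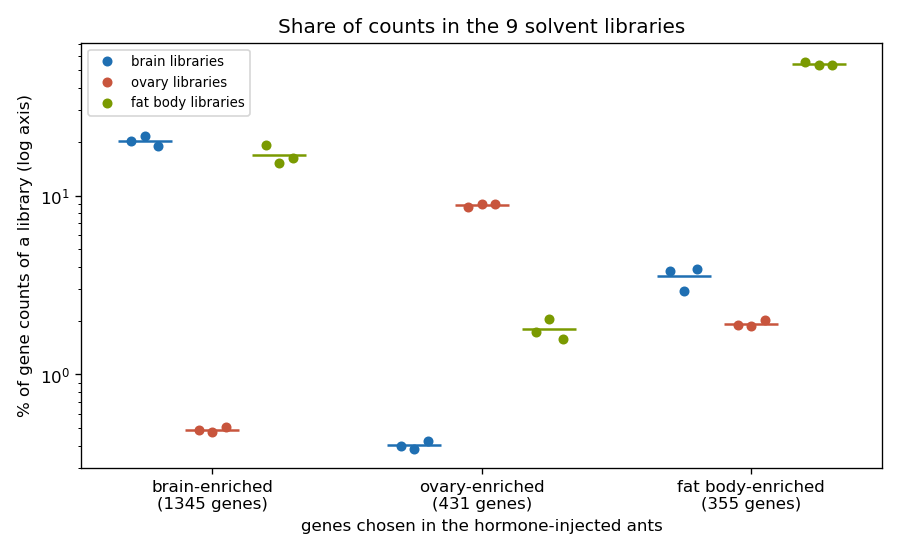
Points give the share of a solvent library's gene counts (y axis, percent on a log axis) taken by genes enriched in brain, ovary or fat body, all chosen in hormone-injected ants, with a line at the mean of 3 libraries. Brain-enriched genes took 19.0 to 21.6% in brain and 0.476 to 0.508% in ovary, but 15.1 to 19.1% in fat body.

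Most brain-enriched genes were also low in the fat body. Their median fat body level was 0.463 CPM, close to the ovary median of 0.327 CPM, and 1112 of the 1345 (82.7%) were at least 8-fold lower in fat body than in brain. Of the 431 ovary-enriched genes, 262 (60.8%) were at least 8-fold lower in fat body than in ovary, with a median of 1.65 CPM in fat body and 0.684 CPM in brain. In fat body 498 brain-enriched genes (37.0%) and 245 ovary-enriched genes (56.8%) reached 1 CPM, against 78.6% of all genes tested. Genes within 2-fold of their own tissue, or above it, in fat body numbered 112 of the brain set (8.33%) and 81 of the ovary set (18.8%).

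A few genes shared between brain and fat body held most of what the brain set took in fat body. Of the 1345 brain-enriched genes, 20 (1.49%) also belonged to the 355 enriched in fat body, which is 5.63% of those. By the rule of the fat body set, these genes were at least 8-fold higher in fat body than in brain with JHA and with 20E. Their larger share in fat body than in brain thus follows from how they were chosen. These 20 took 10.2 to 15.3% of fat body counts, 1.22 to 1.83% of brain counts and 0.00779 to 0.0110% of ovary counts. Without them, the remaining 1325 accounted for 17.2 to 20.4% of brain counts, for 3.83 to 4.90% of fat body counts and for 0.469 to 0.497% of ovary counts. The fat-body-enriched genes together took 3.80, 2.91 and 3.88% of counts in brain replicates 1, 2 and 3 and 1.88, 1.87 and 2.01% in the ovary replicates, against 53.9 to 55.5% in fat body. Without HSALG013133.2, a member of this set, they took 2.92, 1.91 and 2.70% in brain and 1.88, 1.87 and 2.01% in ovary. Brain replicate 2 then lay inside the ovary range. The part of fat body RNA in the brain values was not tested.

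Libraries of brain varied more among ants than libraries of ovary, and this rested on 1 library. Over 8775 genes with a mean of at least 10 CPM, the median SD of log2 levels was 0.21 in brain and 0.12 in ovary. Without brain replicate 3 the brain median was 0.093, and without replicate 1 or 2 it was 0.25 or 0.20. In brain replicate 3 the median brain-enriched gene stood at 0.63 of the mean of the other 2 brain libraries, whereas ovary-enriched genes stood at 0.95 and fat-body-enriched genes at 1.02. These medians cover the 1344, 245 and 312 genes of each set with a usable level. By share of counts, brain replicate 3 had the lowest value of the brain libraries for brain-enriched genes and the highest for ovary-enriched and fat-body-enriched genes, as given above. For the fat-body-enriched genes this rested on HSALG013133.2. Without that gene brain replicate 1 was highest, at 2.92% against 2.70% in brain replicate 3. The part of other tissues in this library was not tested. Without it, 9891 genes were called between the tissues, 5038 higher in brain and 4853 higher in ovary, and 9005 of the 9233 were among them.

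The last question was whether a hormone changed the difference between brain and ovary, tested as an interaction over the 18 brain and ovary libraries. With JHA 1 of 13021 genes was called (0.00768%) and with 20E 8 were (0.0614%), by edgeR's quasi-likelihood test. The unadjusted p was under 0.05 for 387 of 13021 genes with JHA and for 689 with 20E, by the same edgeR test. Where nothing differs, a share of about 0.05 of the genes tested falls under this limit. These counts therefore do not show further genes that depend on a hormone. They do not exclude such genes either, since the JHA count lay below that share and the p-values may not follow it. In these 9 calls the brain was higher relative to the ovary with hormone. The 20E count and its direction depended on the test: DESeq2's Wald test called 74 genes, 57 in this direction and 17 in the other, and limma voom with library weights called 881, 450 and 431. The edgeR count ran from 3 to 39 with 1 library left out. It was 31 without 20E brain replicate 1 (25 and 6) and 39 without 20E ovary replicate 3 (35 and 4). Without solvent brain replicate 3 the 20E count was 3 and the JHA count was 0, values also reached without some other single libraries.

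HSALG003795.2, the gene called with JHA, was at 16.8, 13.0 and 12.3 CPM in solvent brain and 22.0, 43.5 and 32.6 CPM in solvent ovary. With JHA it was at 308, 112 and 109 CPM in brain and 13.5, 26.3 and 25.3 CPM in ovary. The tissue that was higher thus changed: ovary in solvent ants and brain in JHA ants, with no overlap between tissues in either. The change of the tissue difference was 4.25 on the log2 scale (SE 0.54, edgeR adjusted p = 0.0176). The call was lost without any 1 of 8 libraries, solvent brain replicate 3 among them (edgeR adjusted p = 0.137). It was also lost with the replicate number as a block (edgeR adjusted p = 0.402). The size of the change moved less, to 3.57 to 4.50 with a library left out and to 4.04 with the block.

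HSALG013686.2 and HSALG015071.2 were called with 20E in all 17 alternatives. HSALG013686.2 was at 22.2, 24.0 and 20.5 CPM in brain and 53.8, 41.6 and 45.6 CPM in ovary of solvent ants. With 20E it was at 145, 219 and 333 CPM in brain and 50.3, 52.0 and 63.0 CPM in ovary, a change of the tissue difference of 3.16 (SE 0.33, edgeR adjusted p = 0.00118). HSALG015071.2 went from 36.7, 33.4 and 31.6 to 213, 337 and 541 CPM in brain, while ovary was at 59.7, 50.1 and 53.1 CPM with solvent and 63.7, 58.0 and 76.4 CPM with 20E. Its change was 3.14 (SE 0.35, edgeR adjusted p = 0.00145). For both genes solvent ovary lay above solvent brain, and 20E brain lay above 20E ovary, without overlap. Of the 8 genes called with 20E, 6 had been higher in ovary in solvent ants. In all 8 the 20E brain values lay above the solvent brain values, and in 2 the 20E and solvent ovary values did not overlap either. The 8 were chosen by a test on these same values, so a separation in brain partly follows from that choice. The share of all genes tested with such a separation was not counted.

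**Figure D5:**
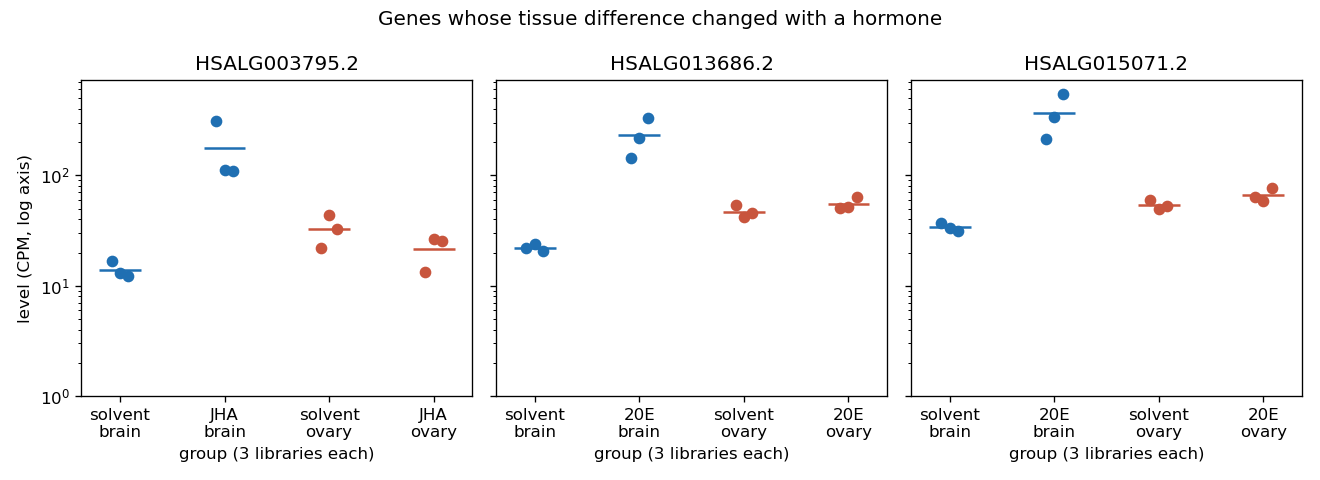
Points are libraries (y axis, CPM on a log axis) and lines are means of 3, for the gene called with JHA (left) and the 2 with the smallest p with 20E (middle and right). Brain points move from below the ovary points in solvent ants to above them with hormone, from 12.3 to 16.8 CPM to 109 to 308 CPM in HSALG003795.2.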

How the data were processed

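Per the labels' protocols, poly(A) RNA was made into NEBNext Ultra II libraries and read on an Illumina HiSeq. The authors deposited whole-number read counts per gene for 27 libraries; the submitters' processing notes name Trimmomatic, STAR 2.5.3a and HTSeq. The sources used here do not give the genome build, annotation or strand setting, so reads of overlapping, antisense or near-identical genes may be mixed or lost. The 5 summary lines of HTSeq entered neither the library sizes nor the tests; in the 6 libraries reads outside genes took 36.1 to 54.0% of the total, reads with several places 6.58 to 10.3% and ambiguous reads 0.564 to 0.814%.

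Tests on the counts used edgeR 4.0.16 (R 4.3.3; TMM, filterByExpr, robust glmQLFit, glmQLFTest, and glmTreat for the 2-fold floor), on 6 libraries per tissue comparison and on 18 for interactions, with Benjamini-Hochberg adjustment over all genes tested. Standard errors are Wald errors of the fit. CPM values use TMM library sizes, except for detection and shares, which use total gene counts. Genes at 0 in a tissue were bounded at 3 counts over its libraries. Comparisons were also tested on simulated counts. Named genes are, per direction, the 2 with the highest mean in the higher tissue among genes called, at least 8-fold apart and not overlapping; the 2 highest with an interval inside -0.5 to 0.5; and for interactions the 2 per direction with the smallest p, of which those called are given. Classes of enriched genes and the 20 shared genes were set after values were seen, and members, lists and tests were chosen with earlier results of these data known. Marker lists could not be matched to identifiers.

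Each treatment's tissues came from 3 ants, and the labels do not say whether a replicate number marks an ant. Log2 deviations of same-numbered brain and ovary libraries correlated at 0.19 to 0.28 with JHA, each best with its own number. With 3 libraries per tissue, this cannot tell whether a number marks an ant. The block moved the count of JHA tissue calls by under 1.5 times but ended the 1 interaction call with JHA. The main tests used no block, so their p-values treat the tissues of an ant as independent. Replicates differed beyond sampling noise (chi-square per degree of freedom of at least 10.6). Alternatives were DESeq2 1.42.0, limma 3.58.1 voom with library weights, other scalings, no filter, larger fits, the block, and leaving out each library. Intervals and floors cover counting error only where they rest on counts.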

Additional observations from a re-analysis of the deposited data

Results flagged for a closer look

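In 3 of the genes named above, the difference between brain and ovary itself differed between treatments by the interaction test of edgeR over 18 libraries. The brain-minus-ovary difference of HSALG003795.2 was 4.25 higher with JHA than with solvent on the log2 scale (SE 0.54, adjusted p = 0.0176), and each of the 3 JHA brain libraries lay above each solvent brain library. That call was lost in 9 of 17 alternatives, among them the replicate block, under which the change was 4.04 (adjusted p = 0.402). The difference of HSALG013686.2 was 3.16 higher with 20E (SE 0.33, adjusted p = 0.00118) and that of HSALG015071.2 was 3.14 higher (SE 0.35, adjusted p = 0.00145), each with 3 of 3 brain libraries above the solvent range.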

How the results depend on the processing

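The count of genes that differed between brain and ovary in solvent ants, 9233, ran from 8640 to 10222 over 15 alternatives, with 50.7 to 56.0% of the calls higher in brain and no gene called in the opposite direction. Past the 2-fold floor it ran from 4873 to 5704 over 13, since DESeq2 and limma voom were not run against the floor. Upper-quartile scaling moved the median log2 difference of all genes by 0.138, and no filter moved it by 0.123. Counts with JHA and 20E ran from 6026 to 8696 and from 7767 to 9869 over 10 alternatives each. The 4 genes named as higher in a tissue kept direction and call in all 15. Detection differed by 1076 genes, and by 1241 at 0.5 CPM.

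Interaction counts were less stable, and the cause was not tested. For JHA the count of 1 became 3 with DESeq2, 27 with limma voom, 2 without a filter, 0 with the replicate block and 0 to 2 with 1 library left out. For 20E the count of 8 became 74 with DESeq2, 881 with limma voom, 5 with the replicate block and 3 to 39 with 1 library left out (31 without 20E brain replicate 1, 39 without 20E ovary replicate 3). The replicate block left the counts between tissues at 9337 (solvent), 7614 (JHA) and 8494 (20E). In the solvent and 20E libraries, deviations of same-numbered brain and ovary libraries correlated at -0.03 to 0.19 and at 0.02 to 0.15. Of 3 numbers, 1 and 2 correlated best with their own. With 3 libraries per tissue, this cannot tell whether a replicate number marks an ant. At low read levels depth limits what can be said.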
